A study of Homo sapiens with 18 samples.

Results

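The common active promoters are 10572 sites in the genome where human lung adenocarcinoma cells carried 2 histone marks of active promoters in all 4 conditions studied. They were chosen from the authors' deposited peak summits, the single base where each ChIP-seq peak is highest. A summit of H3K4me3 in H2087-LCC cells was taken when each of the other 3 conditions had an H3K4me3 summit within 1 kb and all 5 H3K27ac libraries had a summit within 1 kb. Qualifying summits within 1 kb of each other were merged. Of 26049 LCC H3K4me3 summits on chromosomes 1 to 22 and X, 10620 qualified, or 40.8%. The resulting regions were 41.1% of the 25710 merged LCC H3K4me3 regions (Wilson 95% interval 40.5 to 41.7%). The H3K4me3 summits of all 4 conditions merged into 39776 regions. Positions are those of the hg19 build, per the submitters' processing notes. No hg19 annotation was used here, so sites are given by position, with no gene names, and "promoter" rests on the marks alone.

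The TGFb condition was H2087-LCC cells treated with TGF-β1, labelled as 100 nM, for 4 days. SO1 was the line H2087-LCC-SO1, which the labels describe no further. H2030 is a separate human lung adenocarcinoma line, grown in a medium without the hormones and growth factor that the H2087 lines received. LCC was untreated H2087-LCC, a derivative of the lung adenocarcinoma line H2087. Each condition had 1 library for each of H3K4me3, H3K27ac and H3K4me1, except LCC H3K27ac, which had 2 libraries labelled as biological replicates. Those 2 libraries gave the only measure of replicate error, and no test between conditions was run. The labels do not say whether any line is a single clone, and H2030 differs from the H2087 lines in both its origin and its medium.

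H3K4me3 is the trimethylated form of lysine 4 on histone H3 and is typical of the nucleosomes around active transcription start sites, where SET1 and MLL complexes deposit it. H3K27ac, acetylated by p300 and CBP, is found on active promoters and active enhancers alike. H3K4me1, the monomethylated form, is typical of enhancers and of the flanks of active promoters, outside the nucleosomes that carry the trimethylated form. Promoters active in many cell types often belong to genes that every cell uses.

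The 9 lists behind the choice held between 25624 and 28850 H3K4me3 summits and between 50628 and 68069 H3K27ac summits. The H3K4me1 lists, which the choice did not use, held between 128082 and 143813. The read depth of the libraries is unknown. The deposited score of a summit, the −log10 of a p or q value, grows with depth and is not comparable between libraries. For that reason each region was given the percentile, within its own list, of the highest-scoring summit within 1 kb. A percentile of 90 means that about 90% of the summits in that library scored lower.

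The list that most often kept an LCC summit out was from H2030. Of the non-qualifying summits, 2745 lacked a partner in exactly 1 of the 8 other lists. That list was H2030 H3K4me3 for 818 summits and H2030 H3K27ac for 741. LCC H3K27ac replicate 1 alone kept out 533 summits, against 97 for LCC H3K27ac replicate 2. SO1 H3K27ac kept out 292, TGFb H3K27ac 123, SO1 H3K4me3 93 and TGFb H3K4me3 48. The shorter LCC replicate therefore alone kept out more summits than any list of TGFb or SO1. A total of 304 LCC summits had no partner in any of the 8 lists.

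Most members sat far inside the 1 kb limit. The farthest of the 8 partner summits lay a median of 320 bp from the LCC H3K4me3 summit. The median distance of the nearest H3K4me3 summit was 32 bp in TGFb, 36 bp in SO1 and 43 bp in H2030. The nearest H3K27ac summit lay a median of 57 bp away in TGFb, 73 bp in SO1, 77 bp in H2030, 69 bp in LCC replicate 1 and 60 bp in LCC replicate 2. At the limit itself, 353 summits had their farthest partner in the last 100 bp inside it and were taken, with a median LCC H3K4me3 score of 467. Another 251 had it in the first 100 bp outside and were not, with a median of 474. The summits on either side of the limit thus had nearly the same scores.

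The members held the upper part of every H3K4me3 list. Their median H3K4me3 percentile was 78.0 in TGFb, 77.2 in SO1, 74.4 in H2030 and 75.8 in LCC. For the other 15138 LCC H3K4me3 regions, where a summit was present, the medians were 41.7 in TGFb, 43.3 in SO1, 47.2 in H2030 and 32.4 in LCC. Of the top 10% of each H3K4me3 list, 82.8% of summits in TGFb, 81.0% in SO1, 80.5% in H2030 and 84.9% in LCC lay at a member. Of the lowest 10%, 2.05% did in TGFb, 2.38% in SO1, 5.31% in H2030 and 4.80% in LCC. These values are those of the marks that chose the regions and are a description only.

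H3K27ac was also high at the members, which made up less of its longer lists. The median H3K27ac percentile of the members was 85.6 in TGFb, 78.2 in SO1, 85.3 in H2030, 78.5 in LCC replicate 1 and 85.2 in LCC replicate 2. The members took up 54.7% of the top 10% of H3K27ac summits in TGFb, 38.7% in SO1, 68.2% in H2030, 51.6% in LCC replicate 1 and 58.7% in LCC replicate 2. Of all H3K27ac summits, 16.4% in TGFb, 20.5% in SO1, 21.1% in H2030, 23.8% in LCC replicate 1 and 18.4% in LCC replicate 2 lay at a member. For H3K4me3 these shares of the whole list were 36.9% in TGFb, 37.1% in SO1, 41.4% in H2030 and 40.9% in LCC. The deposited H3K27ac scores themselves had medians of 40.1 in LCC replicate 1 and 90.1 in LCC replicate 2 at the same regions, which shows how far the score can move between libraries of 1 condition.

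**Figure D1:**
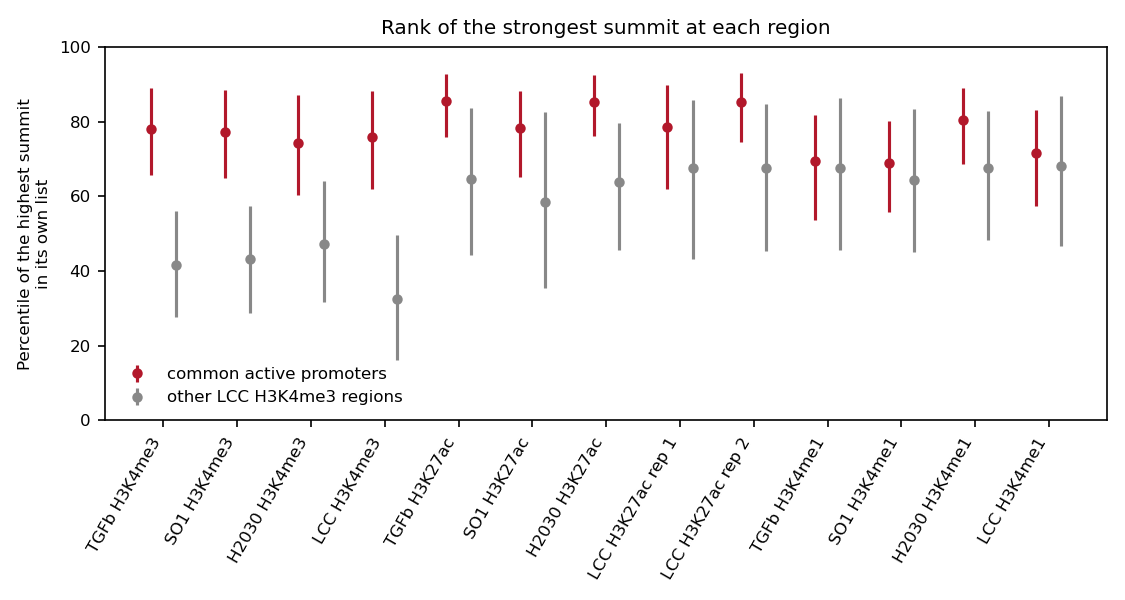
Within-list percentile (0 to 100) of the highest summit within 1 kb, for the 10572 common active promoters (red) and the other LCC H3K4me3 regions that had a summit (grey), in each of the 13 libraries. Points are medians over regions and bars the range between the quartiles; the members' H3K4me3 medians lie between 74.4 and 78.0, above all grey H3K4me3 medians, while the 2 sets lie close in H3K4me1 of TGFb, SO1 and LCC.

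The members were not uniform. In all 9 lists at once, 7610 members (72.0%) scored above the list's median, and 1806 (17.1%) were in the top 25%. The medians of all 4 H3K4me3 lists were passed by 8981 members (85.0%), and those of all 5 H3K27ac lists by 8616 (81.5%). At the other end, 9 members were below the median of every list.

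The members with the highest minimum percentile over the 9 lists were chr16:28834768, chr19:1408131, chr2:174829827, chr19:55918876 and chr1:150207598. The lowest of the 9 percentiles at these sites was between 93.9 and 95.6. At chr16:28834768 the H3K4me3 score was 658 in TGFb, 642 in SO1, 575 in H2030 and 619 in LCC. Its H3K27ac score was 501 in TGFb, 322 in SO1, 490 in H2030, 218 in LCC replicate 1 and 400 in LCC replicate 2. None of the 5 sites had an H3K4me1 summit within 1 kb in any condition. The nearest H3K4me1 summits lay between 1022 bp away, in SO1 at chr19:55918876, and 2548 bp away, in H2030 at chr16:28834768.

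The members with the lowest minimum were chr19:18439641, chr2:101740919, chr14:105267517, chr1:39644366 and chr5:72667005. The lowest of the 9 percentiles at these sites was between 0.00790 and 0.0605. At chr2:101740919 the H3K4me3 score was 1.35 in TGFb, 11.4 in SO1, 115 in H2030 and 6.50 in LCC. Its H3K27ac score was 139 in TGFb, 378 in SO1, 391 in H2030, 48.0 in LCC replicate 1 and 119 in LCC replicate 2. At chr5:72667005 the H3K4me3 score was 14.5 in TGFb, 9.12 in SO1, 1.62 in H2030 and 9.68 in LCC, while H3K27ac scored between 112 and 438 in the 5 lists. At chr14:105267517 the weak mark was H3K27ac, with 6.99 in TGFb, 8.02 in SO1, 97.1 in H2030, 1.48 in LCC replicate 1 and 14.4 in LCC replicate 2. Its H3K4me3 scores were 437 in TGFb, 499 in SO1, 496 in H2030 and 368 in LCC.

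A minority of members went against the label of active promoter in that H3K4me3 was weak everywhere. The H3K4me3 percentile was below the median of the list in all 4 conditions at 894 members (8.46%). Of these, 599 (5.67% of all members) were above the median in all 5 H3K27ac lists. Those 599 sites had an H3K4me1 summit within 1 kb in 81.3% of cases in TGFb, 81.0% in SO1, 78.3% in H2030 and 84.1% in LCC. The 7610 members above all 9 medians had one in 64.6% in TGFb, 66.2% in SO1, 61.6% in H2030 and 64.8% in LCC. Where present, the H3K4me1 summit at the 599 sites was among the strongest of its list, with a median percentile of 92.9 in TGFb, 93.0 in SO1, 94.9 in H2030 and 92.6 in LCC. At the 7610 sites it was 68.5 in TGFb, 68.2 in SO1, 80.4 in H2030 and 70.5 in LCC. Weak H3K4me3 with strong H3K27ac and H3K4me1 is a pattern more typical of enhancers, so for this minority the name promoter is not carried by the marks. An example is chr7:55201316, with H3K4me3 scores of 56.4 in TGFb, 83.4 in SO1, 10.4 in H2030 and 24.5 in LCC. Its H3K27ac scores were 441 in TGFb, 479 in SO1, 264 in H2030, 228 in LCC replicate 1 and 319 in LCC replicate 2. Its H3K4me1 scores were 92.4 in TGFb, 169 in SO1 and 158 in LCC, with no H2030 summit within 1 kb. This site was chosen after its values were seen.

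H3K4me1, which the choice did not use, flanked the members in all 4 conditions. An H3K4me1 summit lay within 1 kb of 7428 members in TGFb, or 70.3% (Wilson 95% interval 69.4 to 71.1%). The share was 72.3% in SO1 (71.4 to 73.1%), 67.9% in H2030 (67.0 to 68.8%) and 71.0% in LCC (70.1 to 71.9%). Within 5 kb the shares were 99.3% in TGFb, 99.7% in SO1, 99.2% in H2030 and 99.5% in LCC. These intervals cover counting error only, and H3K4me1 has no replicate, so the gaps of a few points between conditions carry no measure of library error.

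The position of H3K4me1 was the clearest feature of the members. H3K4me1 summits were scarce at the centre, with 7.95 per 1000 members in each 100 bp bin at 50 bp from the LCC H3K4me3 summit in TGFb, 9.41 in SO1, 8.47 in H2030 and 6.67 in LCC. They were most frequent at 750 bp in TGFb, SO1 and LCC, with between 89.3 and 90.1, and at 850 bp in H2030, with 87.9. In the outermost bin, at the 5 kb edge, the density was down to between 11.7 and 12.8. The other LCC H3K4me3 regions showed no such gap, with 57.6 summits per 1000 regions at 50 bp in TGFb, 65.7 in SO1, 41.8 in H2030 and 56.8 in LCC. Those regions were mostly weaker in H3K4me3, with a median LCC percentile of 32.4, against 75.8 at members. No profile was made for other regions of equal strength, so whether the gap goes with strong H3K4me3 in general was not tested. H3K27ac of the same conditions was highest in the central bin of the members, at 324 per 1000 in TGFb, 286 in SO1, 280 in H2030, 301 in LCC replicate 1 and 320 in LCC replicate 2. The choice required H3K27ac within 1 kb of the members, so an excess near the centre was partly fixed by it. The other regions also had their H3K27ac maximum at 50 bp, at between 73.6 per 1000 in H2030 and 153 in TGFb.

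**Figure D2:**
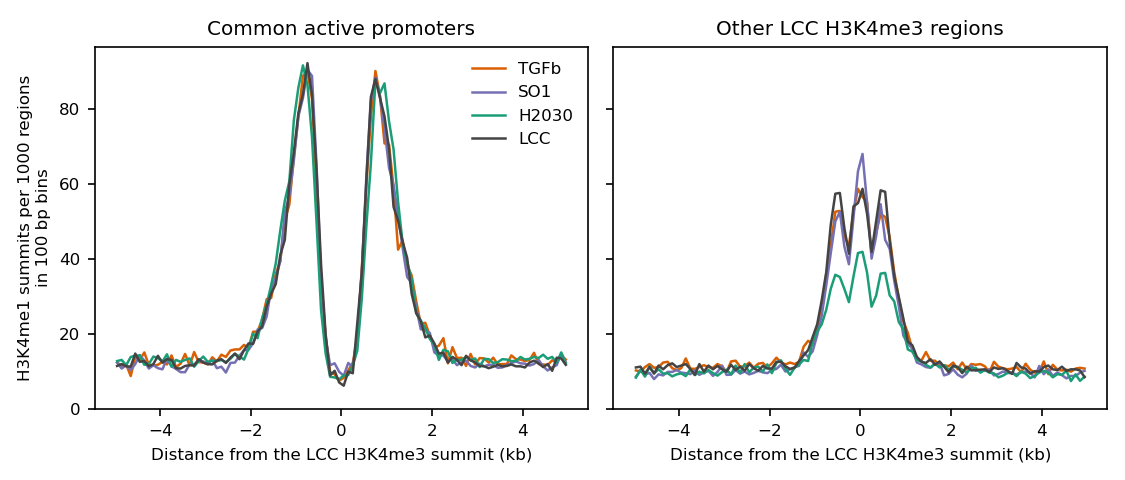
Number of H3K4me1 summits per 1000 regions in 100 bp bins (y) against the distance from the LCC H3K4me3 summit in kb (x), for the common active promoters (left) and the other LCC H3K4me3 regions (right); each line is 1 library. The members show 2 flanking maxima at 750 to 850 bp around a near-empty centre in all 4 conditions, while the other regions have summits at the centre too.

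Most members had H3K4me1 on both sides. Within 2.5 kb, both sides were marked at 75.2% of members in TGFb, 77.1% in SO1, 76.9% in H2030 and 76.4% in LCC. Neither side was marked at 1.65% in TGFb, 1.19% in SO1, 2.05% in H2030 and 1.54% in LCC. Where both sides were marked within 5 kb, the median span between the 2 nearest flanking summits was 2152 bp in TGFb, 2140 bp in SO1, 2197 bp in H2030 and 2138 bp in LCC. The span of a region was similar from condition to condition: across regions, Spearman's rho with the LCC span was 0.77 for TGFb (8589 regions), 0.75 for SO1 (8692) and 0.58 for H2030 (8552). Where both conditions had H3K4me1 within 1 kb, the nearer summit lay on the same side as in LCC at 80.5% of members in TGFb (79.6 to 81.5%), 80.4% in SO1 (79.5 to 81.3%) and 75.1% in H2030 (74.1 to 76.2%).

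The span was wider where the active marks were stronger. Members were split into 4 equal groups of 2643 by the H3K27ac score of the same condition. In TGFb the median span was 1631 bp in the lowest group and 2819 bp in the highest. It was 1643 and 2778 bp in SO1, 1709 and 2769 bp in H2030, and 1607 and 2791 bp in LCC, lowest group first. By H3K4me3 score the spans were closer together, at 1734 and 2336 bp in TGFb, 1739 and 2325 bp in SO1, 1824 and 2330 bp in H2030, and 1673 and 2395 bp in LCC.

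In the same way, the share of members with H3K4me1 within 1 kb was lower the stronger the active mark. Over the 4 groups by H3K27ac score, lowest first, it was 86.2, 78.9, 65.8 and 50.2% in TGFb, and 90.5, 80.4, 66.0 and 52.3% in SO1. It was 85.5, 76.8, 62.3 and 46.9% in H2030, and 88.1, 78.5, 66.7 and 50.7% in LCC with replicate 2. LCC replicate 1 gave 88.0% in its lowest group and 50.7% in its highest. All 4 conditions, and both LCC replicates, therefore showed a lower share in each higher group. Grouped by H3K4me3 score, the share was 82.8% in the lowest and 61.5% in the highest group of TGFb, 86.7 and 61.5% in SO1, 80.9 and 58.7% in H2030, and 85.6 and 59.6% in LCC. The groups were cut on the marks that chose the members, and the H3K4me1 summit count came from separate libraries.

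**Figure D3:**
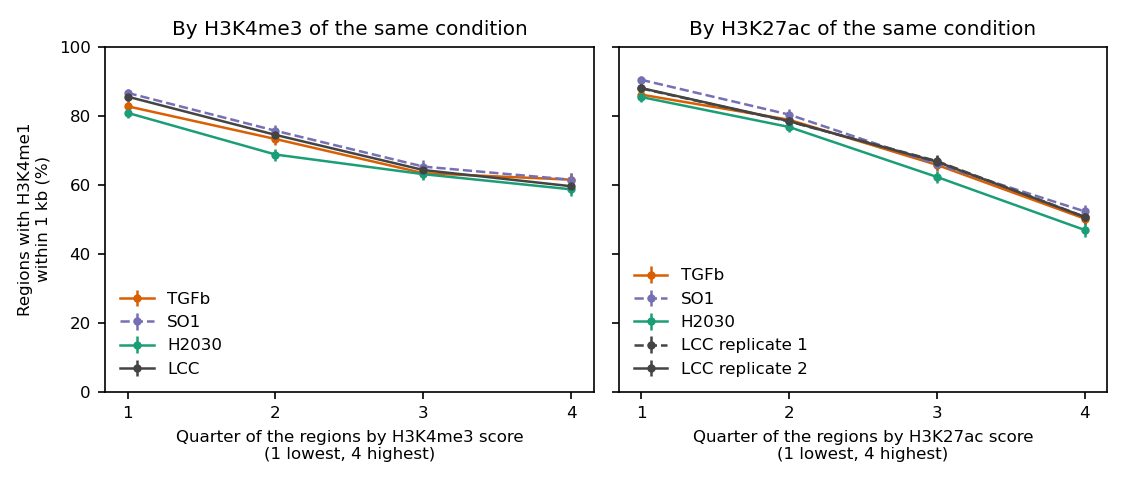
Share of common active promoters with an H3K4me1 summit within 1 kb (y, percent) in 4 equal groups by H3K4me3 score (left) and H3K27ac score (right) of the same condition, with 2643 members each. Points are shares and bars Wilson 95% intervals (counting error only); the share falls to between 46.9 and 52.3% in the highest H3K27ac group of each library.

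Against the other LCC H3K4me3 regions, the share with H3K4me1 within 1 kb differed mainly in H2030. It was 67.9% at members and 50.3% at the other regions in H2030, a difference of 17.6 points (Newcombe 95% interval 16.4 to 18.8). In TGFb it was 70.3% at members and 72.3% at the other regions (difference −2.04 points, −3.17 to −0.917). In SO1 it was 72.3% at members and 72.2% at the others (0.128 points, −0.987 to 1.24), and in LCC 71.0% at members and 74.3% at the others (−3.23 points, −4.34 to −2.12). The members had to be marked in H2030 and the others did not, so the H2030 difference is between sets that the choice made unequal in that line. The 3621 regions with all H2087 marks but without the full H2030 pair had H3K4me1 at 44.9% in H2030, against 81.6% in TGFb, 83.5% in SO1 and 83.7% in LCC. The 5063 regions with H3K4me3 in all 4 conditions but an incomplete set of H3K27ac lists had 72.9% in TGFb, 76.2% in SO1, 72.9% in H2030 and 73.8% in LCC. At 1 kb the members were lower than that set in each condition. The differences were −2.62 points in TGFb (−4.11 to −1.11), −3.86 in SO1 (−5.30 to −2.39), −5.01 in H2030 (−6.52 to −3.49) and −2.81 in LCC (−4.29 to −1.31). Within 5 kb the order was the reverse. That set had H3K4me1 at 89.4% in TGFb, 92.5% in SO1, 89.5% in H2030 and 90.3% in LCC, against 99.2 to 99.7% at members. The other LCC H3K4me3 regions had 89.0% in TGFb, 88.5% in SO1, 70.1% in H2030 and 90.6% in LCC within 5 kb. The shares that were lower at members at 1 kb were thus not lower at 5 kb. Shorter limits were not compared between the sets. The median distance to the nearest H3K4me1 summit was between 774 and 830 bp at members over the 4 conditions. In the set with incomplete H3K27ac it was between 450 and 548 bp.

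The small pooled differences in the H2087 conditions hid larger positive ones in most strata of the LCC H3K4me3 percentile. Members were lower only between the 50th and 75th percentile, by a few points. In the top 25% of the LCC H3K4me3 list, 62.3% of 5450 members and 48.8% of 1060 other regions had LCC H3K4me1 (difference 13.5 points, 10.2 to 16.8). Between the 50th and 75th percentile the shares were 78.4% of 3845 members and 82.1% of 2661 others (−3.71 points, −5.65 to −1.74). Between the 25th and 50th percentile they were 85.6% of 926 members and 77.7% of 5553 others (7.91 points, 5.28 to 10.3). Below the 25th percentile they were 87.5% of 351 members and 72.0% of 5864 others (15.4 points, 11.4 to 18.7). TGFb and SO1 had the same order of signs over these strata, while in H2030 the members were higher in every stratum.

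H3K4me1 lay within 1 kb in all 4 conditions at 5454 members (51.6%, against 41.5% of all LCC H3K4me3 regions) and in none at 1541 (14.6%, against 12.1%). It was missing in H2030 alone at 815 members (7.71%, against 16.9%) and present in H2030 alone at 363 (3.43%, against 3.49%). The groups marked only in TGFb, SO1 or LCC held 176, 210 and 165 members (1.66, 1.99 and 1.56%, against 1.67, 2.25 and 2.22%). The shares marked in 1 condition alone were thus near those of all LCC H3K4me3 regions. At just 9 members (0.0851%, against 2.43%) was H3K4me1 missing out to 5 kb in every condition. The choice required H3K4me3 and H3K27ac of the members in every condition, but not of the rest of the LCC H3K4me3 regions.

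Counted at 1 kb, members gained and lost H3K4me1 at shares within 1 point of those of all LCC H3K4me3 regions, apart from losses in SO1 and H2030, which were less frequent at members. In TGFb 757 members gained it (7.16%, against 7.37% of all LCC H3K4me3 regions) and 837 lost it (7.92%, against 8.83%). In SO1 840 gained it (7.95%, against 8.47%) and 704 lost it (6.66%, against 9.16%). In H2030 979 gained it (9.26%, against 9.20%) and 1310 lost it (12.4%, against 24.6%). At nearly all of these members the other condition did have an H3K4me1 summit between 1 and 5 kb away. When none was allowed within 5 kb, gains numbered 12 in TGFb, 24 in SO1 and 27 in H2030, and losses 38 in TGFb, 7 in SO1 and 60 in H2030. The same rule called gains at 1.14, 1.75 and 1.70% of all LCC H3K4me3 regions in TGFb, SO1 and H2030, and losses at 2.27, 2.80 and 12.9%. Members had to carry H3K4me3 and H3K27ac in every condition, and the rest of the LCC H3K4me3 regions did not. The lower shares of losses at members are thus between sets that the choice made unequal, and are a description only.

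The order of H3K27ac among the members was nearly the same in the H2087 conditions and differed more in H2030. Across the 10572 members, Spearman's rho between the 2 LCC replicates was 0.88. TGFb had a rho of 0.86 with LCC replicate 1 and 0.89 with replicate 2. SO1 had 0.85 and 0.80, and H2030 0.62 and 0.61. Members are not independent replicates, and the choice required all of them to be marked, so these are descriptions. For H3K4me3, rho with LCC was 0.80 in TGFb, 0.75 in SO1 and 0.66 in H2030, and for H3K4me1, over the members marked in both, 0.66 in TGFb, 0.64 in SO1 and 0.36 in H2030.

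The spread of the differences was widest for H2030. Each member was ranked among the members alone, on a scale of 0 to 100, which removes differences in list length. The SD over members of the difference in H3K27ac rank from LCC replicate 2 was 13.3 points for TGFb, 18.3 for SO1 and 25.4 for H2030. From LCC replicate 1 it was 15.2 for TGFb, 15.7 for SO1 and 25.0 for H2030. The 2 LCC replicates differed from each other with an SD of 14.0. With percentiles of the whole lists, the SD from LCC replicate 2 was 7.42 points for TGFb, 11.3 for SO1 and 13.9 for H2030. From replicate 1 it was 12.8 for TGFb, 12.5 for SO1 and 17.9 for H2030, and between the LCC replicates 11.9. On both scales and against both replicates H2030 was above the replicate spread. TGFb and SO1 were above or below it depending on the scale or the replicate. For H3K4me3 the SD against LCC was 18.3 for TGFb, 20.3 for SO1 and 23.7 for H2030, with no replicate to set beside them.

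**Figure D4:**
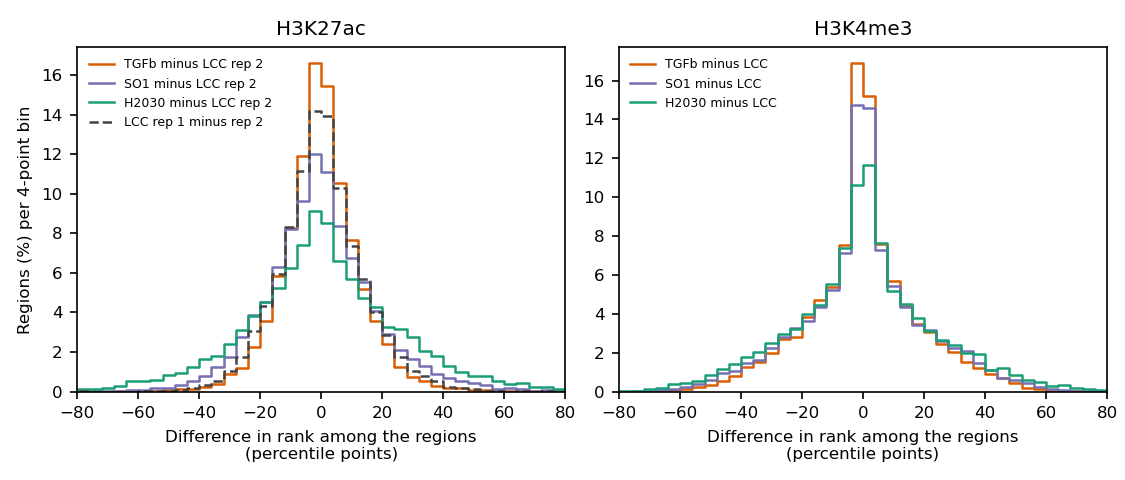
Difference in rank among the 10572 common active promoters (x, percentile points, 4-point bins) and share of the regions in each bin (y, percent), for H3K27ac against LCC replicate 2 (left) and H3K4me3 against LCC (right). The dashed line is LCC replicate 1 minus replicate 2; the TGFb line lies close to it, with an SD of 13.3 against 14.0 points, and the H2030 line is the widest at 25.4.

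How many members moved by 25 within-list percentile points or more depended on the scale. For H3K27ac a member was counted when it moved that far in the same direction against both LCC replicates. In TGFb 68 members (0.643%) were higher and 7 (0.0662%) lower. The same rule called 1.39% of all LCC H3K4me3 regions with the summits needed as higher and 0.562% as lower, which is the background. In SO1 47 (0.445%) were higher and 114 (1.08%) lower, against a background of 1.06 and 3.32%. In H2030 376 (3.56%) were higher and 189 (1.79%) lower, against 3.80 and 5.15%. For H3K4me3 against the 1 LCC library, 100 members (0.946%) were higher and 28 (0.265%) lower in TGFb, against a background of 1.28 and 0.204%. In SO1 165 (1.56%) were higher and 65 (0.615%) lower, against 3.06 and 0.813%. In H2030 322 (3.05%) were higher and 425 (4.02%) lower, against 5.96 and 5.23%. Between the LCC replicates themselves, 942 members (8.91%) were higher and 25 (0.236%) lower in replicate 2 than in replicate 1, against a background of 9.87 and 0.802%. The choice used these marks, so the counts are descriptions. The balance of higher and lower members depended on the lists: ranked among the members alone, the H3K27ac counts were 144 higher and 123 lower in TGFb, 368 and 245 in SO1, and 1054 and 981 in H2030. The H3K4me3 counts on that scale were 950 higher and 946 lower in TGFb, 1162 and 1148 in SO1, and 1430 and 1443 in H2030. That scale ranks members only, so it has no share over all regions. Against LCC replicate 2 alone, with members chosen without replicate 1, the H3K27ac counts on the percentile scale were 208 higher and 34 lower in TGFb, 153 and 573 in SO1, and 667 and 346 in H2030. Of all LCC H3K4me3 regions with the summits needed, 3.38% were higher and 1.69% lower in TGFb, 2.64 and 8.12% in SO1, and 7.04 and 7.04% in H2030. Against replicate 1 alone, with members chosen without replicate 2, the counts were 1193 and 21 in TGFb, 533 and 136 in SO1, and 1658 and 220 in H2030. The shares over all regions were 12.8 and 1.11% in TGFb, 6.83 and 3.97% in SO1, and 15.3 and 5.98% in H2030. The larger direction at the members was thus also the larger one over all regions in TGFb and SO1.

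The largest H3K27ac fall was at chr7:84000781, where the H3K27ac score was 1.70 in H2030, against 146 in LCC replicate 1 and 215 in LCC replicate 2. TGFb had 330 and SO1 had 385 at that site. The H2030 percentile lay 96.9 points below the nearer LCC replicate. H3K4me3 there was 193 in TGFb, 258 in SO1, 7.16 in H2030 and 229 in LCC, so both active marks were low in H2030 alone. H3K4me1 lay within 1 kb in the H2087 conditions and 1135 bp away in H2030. Allowing summits within 2 kb brought the difference to −34.6 points.

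At chr7:90225994 the H3K27ac score was 4.15 in H2030, against 75.6 in LCC replicate 1 and 165 in LCC replicate 2, a fall of 77.8 points. H3K4me3 was lower there as well, at the 59.4 percentile in H2030 and the 90.1 percentile in LCC. A rise of 66.9 points was measured at chr14:102771178, with an H3K27ac score of 276 in H2030, against 3.06 in LCC replicate 1 and 6.15 in LCC replicate 2. TGFb had 16.7 and SO1 16.8 at this site, and its H3K4me3 percentile was 82.2 in TGFb, 84.8 in SO1, 79.2 in H2030 and 69.5 in LCC. At this site H3K27ac was low in LCC while H3K4me3 was above the median in every list.

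In SO1 the H3K27ac score was 4.59 at chr1:1982233, against 45.6 in LCC replicate 1 and 72.5 in LCC replicate 2, a fall of 72.2 points. Its H3K4me3 percentile was 63.3 in SO1 and 92.1 in LCC. At chr17:77786988 it was 3.61 in SO1, against 33.6 in LCC replicate 1 and 57.0 in LCC replicate 2, a fall of 70.2 points. At chr12:113659584 the difference was −62.7 points, but −4.27 points once summits within 2 kb were allowed. A rise of 58.8 points was seen at chr12:115792304, with 181 in SO1, against 6.18 in LCC replicate 1 and 3.53 in LCC replicate 2. At this last site TGFb had 88.3 and H2030 27.4, so LCC was the lowest condition. Without LCC replicate 1 the rise was 77.6 points.

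The largest TGFb rise in H3K27ac was at chr20:56273848, with a score of 315 in TGFb, against 7.63 in LCC replicate 1 and 8.12 in LCC replicate 2. The percentile was 58.6 points higher. SO1 had 134 and H2030 347 at this site, so LCC was the lowest condition. At chr11:73000498 TGFb scored 245, against 8.33 in LCC replicate 1 and 9.71 in LCC replicate 2, a rise of 49.6 points. H2030 had 119 there and SO1 26.0, at percentiles of 78.8 in H2030 and 47.1 in SO1. At chr2:238875285 TGFb scored 166, against 5.62 in LCC replicate 1 and 7.87 in LCC replicate 2. SO1 had 12.9 and H2030 6.99 at this site, so TGFb was the highest. The rise was 49.1 points, but 26.7 points once summits within 2 kb were allowed.

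Among the TGFb falls, chr6:16129572 had an H3K27ac score of 22.1 in TGFb, against 83.2 in LCC replicate 1 and 153 in LCC replicate 2, a fall of 40.7 points. Its H3K4me3 percentile was 99.3 in TGFb and 98.9 in LCC. The 2 larger falls, of 77.7 points each, were at chr1:121484969 and chr7:61969184. Both sites had the same H3K27ac scores in every list, with 3.83 in TGFb, 23.0 in SO1, 3.71 in H2030, 106 in LCC replicate 1 and 91.5 in LCC replicate 2. To the 3 digits compared they also had the same H3K4me1 scores in TGFb, SO1 and LCC, and the same H3K4me3 scores in SO1 and LCC. Given these equal values on 2 chromosomes, the sites cannot be read as separate measurements, although they count as 2 members of the 10572.

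In H3K4me3 the largest TGFb rise, 57.2 points at chr8:99838623, was not separate from its neighbour. The TGFb summit that gave its score of 619 also served the member chr8:99837613, where LCC scored 524. With a 500 bp limit the rise was 6.21 points. Sharing of this kind was rare, at between 4 and 6 members in each list. The next rises were 45.6 points at chr8:125284213, with a score of 147 in TGFb and 4.90 in LCC, and 42.0 points at chr13:34619529, with 73.2 in TGFb and 3.39 in LCC. In SO1 the largest H3K4me3 rise was at chr17:76920887, with 678 in SO1 against 259 in LCC, and the largest fall at chr3:184530157, with 405 in SO1 against 570 in LCC.

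In H2030 the largest H3K4me3 fall was 52.8 points at chr5:150284307, with a score of 10.8 in H2030 and 428 in LCC, while TGFb had 501 and SO1 639. H3K27ac at this site was at the 31.2 percentile in H2030, against 77.6 in LCC replicate 1 and 71.8 in LCC replicate 2. The nearest H2030 H3K4me1 summit was 57573 bp away. The largest H2030 rise was 52.2 points at chr19:30302358, with a score of 625 in H2030 and 148 in LCC. H3K27ac moved with it, at 194 in H2030, against 5.42 in LCC replicate 1 and 11.6 in LCC replicate 2. At both sites, then, the 2 active marks differed from LCC in the same direction.

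The shape of the members was simple. A single LCC H3K4me3 summit made up 10524 of them, and 48 held more. The longest were chr8:1711291-1712282, chr7:155744031-155745012 and chr12:53773135-53774115, at 992, 982 and 981 bp. Within 1 kb, a single H3K27ac summit was found at 94.3% of members in TGFb, 90.8% in SO1, 95.2% in H2030, 86.0% in LCC replicate 1 and 90.6% in LCC replicate 2. Measured from the LCC replicate 1 H3K27ac summit, the summit of another list lay a median of 44 bp away in TGFb, 45 bp in SO1, 55 bp in H2030 and 51 bp in LCC replicate 2. By the median, the H3K27ac summit of TGFb and SO1 was thus no farther from it than that of the second LCC replicate. Over 500 bp away were 8.01% of the summits in TGFb, 9.43% in SO1 and 8.69% in LCC replicate 2.

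Members were found on every chromosome analysed. They made up between 34.3% of the LCC H3K4me3 regions on chromosome 4 (31.5 to 37.2%) and 45.3% on chromosome 16 (42.4 to 48.3%). The median gap to the next member was 81615 bp, and 712 of 10549 gaps (6.75%) were under 10 kb. The windows of 1 Mb with the most members were chr16:30000001-31000000 with 38, chr16:2000001-3000000 with 32 and chr17:73000001-74000000 with 29. In these windows LCC had 51, 60 and 38 H3K4me3 regions in all. H3K4me1 within 1 kb in LCC was present at 82.7% of members on chromosome 19 and 56.9% on chromosome 4.

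Distal H3K27ac elements around the members were shared least by H2030. Distal elements were LCC replicate 1 H3K27ac summits with an LCC H3K4me1 summit and no LCC H3K4me3 summit within 1 kb, merged within 1 kb and grouped by their distance to the nearest member. At 1 to 10 kb from a member, an H3K27ac summit lay within 1 kb of 65.2% of 2750 elements in TGFb (63.4 to 67.0%), 60.8% in SO1 (59.0 to 62.6%) and 36.4% in H2030 (34.7 to 38.3%), and of 72.5% in LCC replicate 2 (70.8 to 74.1%). Over 200 kb away the shares were 74.6% of 4725 in TGFb, 60.2% in SO1, 25.4% in H2030 and 80.0% in LCC replicate 2. H2030 shared fewer elements far from the members than near them, with 37.4% at 10 to 50 kb and 31.3% at 50 to 200 kb. TGFb and LCC replicate 2 shared the fewest in the nearest band. The choice required an H3K27ac summit of every list within 1 kb of a member. Such a summit can also lie within 1 kb of an element in the nearest band. Distances to other LCC H3K4me3 regions were not set beside these, so the change with distance is a description only. Elements that both LCC replicates held gave higher shares, at 79.5% in TGFb, 73.0% in SO1 and 42.3% in H2030 for 1993 elements within 1 to 10 kb.

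**Figure D5:**
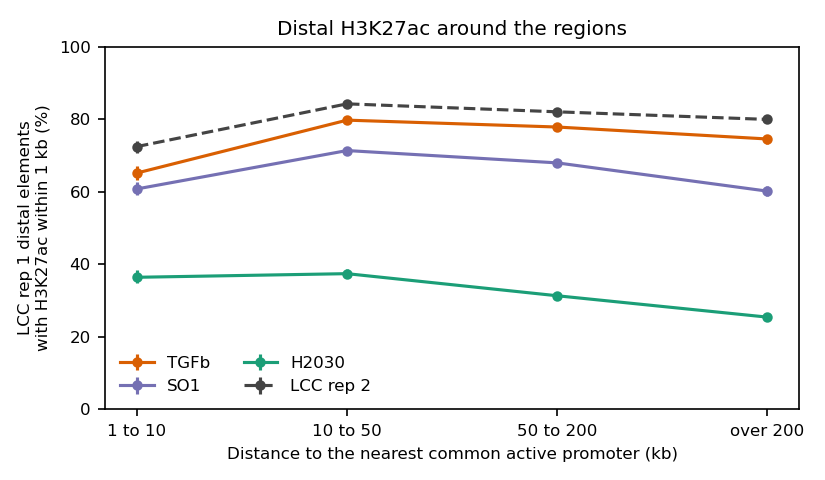
Share of LCC replicate 1 distal H3K27ac elements with an H3K27ac summit of another library within 1 kb (y, percent) by distance to the nearest common active promoter in kb (x). Points are shares and bars Wilson 95% intervals (counting error only). The H2030 line lies lowest in every band, at 36.4% nearest and 25.4% farthest, and the dashed line is the second LCC replicate. The H3K27ac summits required of the members can count in the nearest band.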

How the data were processed

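ChIP-seq of 3 histone marks was analysed from 13 immunoprecipitated libraries of 18 samples; the 5 inputs were not analysed here. The sample titles gave the groups. Alignment and handling tools listed in the submitters' processing notes are Bowtie2, SAMtools and deepTools, with hg19 as the build; the peak caller is not given in the sources used here. The authors deposited peak summits called per library, each with a score that is the −log10 of a p or q value (which of them was not settled). Read depth is unknown, and a wide peak is reduced to its summit.

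The analysis covered chromosomes 1 to 22 and X. A region carried a mark when a summit lay within 1 kb, and its value was the highest-scoring such summit as a percentile of its own list. An H3K27ac difference against LCC was the smaller of the differences from the 2 replicates, where both had the same sign, and otherwise 0. Named regions were the 5 with the highest and the 5 with the lowest minimum percentile over the 9 lists, the 3 largest rises and falls per condition and mark, the 3 longest regions and the 3 densest windows of 1 Mb. Some of them are given by count or range only. With 1 library for nearly all groups, no test between conditions was run. Shares have Wilson and differences Newcombe 95% intervals, which cover counting error only. Alternatives were distances of 500 bp and 2 kb, a score minimum of 10, lists of equal length, either LCC replicate left out, other merging distances, a 5 kb limit for H3K4me1 changes, and ranks among the members. The rank, the 5 kb limit and all alternatives for the percentile counts were added after seeing the data. The members and lists were chosen with earlier results of these data known. Because no hg19 annotation was used, the planned gene lists, cell type markers and sequences were not applied. Python 3.11.15, numpy 2.4.6 and pandas 2.3.3 were used, and the counting steps were tested on simulated data.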

Additional observations from a re-analysis of the deposited data

How the results depend on the processing

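No paired analysis was possible because the LCC H3K27ac replicates share their numbers only with input samples, which were not analysed here, and the results come from no test. No percentile difference of a named region changed sign where it could be computed, but several balances of higher and lower counts reversed. A named region that lacked a needed summit under a setting had no value there. With scores of at least 10 this left no named H3K27ac rise. The only named H3K27ac falls left were those at chr6:16129572 in TGFb and chr12:113659584 in SO1. The number of common active promoters was 6979 at 500 bp and between 10667 and 11097 without either LCC H3K27ac replicate. The H3K4me1 shares in TGFb, SO1, H2030 and LCC were 17.6, 18.7, 14.4 and 17.4% at 500 bp, 96.0, 96.5, 95.6 and 96.1% at 2 kb, and 55.8, 64.2, 58.0 and 59.8% with scores of at least 10. With lists of equal length the TGFb share was 68.8%, and without either LCC replicate the H2030 share was between 67.9 and 68.8%. The shares thus depend on the distance far more than on the condition. Members that gained H3K4me1 numbered 437 in TGFb, 480 in SO1 and 418 in H2030 at 500 bp, and 231, 258 and 296 at 2 kb. Losses were 423, 391 and 628 at 500 bp, where TGFb gains slightly exceeded losses, and 237, 210 and 350 at 2 kb. The same distances were used to choose the members, which numbered 6979 at 500 bp and 11811 at 2 kb. Shares over all LCC H3K4me3 regions were not counted at these distances, so the counts are descriptions only. With no H3K4me1 within 5 kb in the other condition, gains were 12, 24 and 27 and losses 38, 7 and 60.

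The counts of members at least 25 percentile points higher or lower than LCC also depended on the processing. The members themselves numbered 6979 at 500 bp, 11811 at 2 kb, 8983 with scores of at least 10 and 10414 with lists of equal length. Shares over all LCC H3K4me3 regions were not counted at these settings or for ranks among the members. Those counts are thus descriptions only. At 500 bp, 45 were higher in TGFb H3K27ac and 64 in TGFb H3K4me3, 99 higher and 37 lower in SO1 H3K4me3, and 199 higher in H2030 H3K4me3. At 2 kb, 12 were lower in TGFb H3K27ac. With scores of at least 10, H3K27ac gave 189 higher in TGFb, 144 higher and 68 lower in SO1, and 605 higher in H2030, and H3K4me3 gave 193 higher and 109 lower in TGFb and 182 lower in SO1. The balance in SO1 H3K27ac was therefore opposite to that of all summits. With lists of equal length, H3K27ac gave 28 lower in TGFb, 75 higher in SO1 and 604 higher in H2030, and H3K4me3 gave 73 higher and 77 lower in TGFb and 135 higher and 156 lower in SO1, where all summits gave more higher than lower. Without either LCC replicate, H3K27ac gave 208 to 1193 higher and 21 to 34 lower in TGFb, 153 to 533 higher and 136 to 573 lower in SO1, and 667 to 1658 higher and 220 to 346 lower in H2030. Over all LCC H3K4me3 regions the shares were 3.38 to 12.8% higher and 1.11 to 1.69% lower in TGFb. They were 2.64 to 6.83% and 3.97 to 8.12% in SO1, and 7.04 to 15.3% and 5.98 to 7.04% in H2030. Ranked among the members, H3K27ac gave 144 higher and 123 lower in TGFb, 368 and 245 in SO1, and 1054 and 981 in H2030; H3K4me3 gave 950 and 946 in TGFb, 1162 and 1148 in SO1, and 1430 and 1443 in H2030. The cause was not tested. Of the values for single named regions, spans and sides that could be computed, 188 moved by less than the spread used for comparison and 27 by more, some to larger and some to smaller values. For named regions the spread was an SD of 8.43 points from the LCC replicates, and for sides the Wilson interval. For spans it was the range between the quartiles over regions. A median can hardly leave that range, so the spans add little to the 188.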
